A study of Mus musculus with 7 samples.

Results

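JUNB was mapped across the genome of mouse fibroblasts, and 1528 of the 12655 places where it was called lay at the ends of protein-coding genes. These gene-end regions, 12.1% of the whole, are described here. A region is a set of overlapping peaks (at least 1 bp in common) from 4 peak lists, and its position is the median of the summits of the lists that hold it. A region was kept when this position lay within 1 kb of the 5′ or 3′ end of a gene in the RefSeq annotation of mm10. The 1528 regions touched 1615 of 21900 genes (7.37%). No fold, width or number of lists entered the choice.

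The libraries came from iMGT-Myh6-eGFP-MEF, a line of mouse embryonic fibroblasts in which doxycycline turns on Mef2c, Gata4 and Tbx5, a trio of cardiac transcription factors abbreviated MGT; its name also carries an eGFP reporter of Myh6, a cardiac myosin gene. All groups received 1 µg/mL doxycycline and were collected at day 1 of MGT expression, so no group without MGT stands beside them. The groups were siControl (a control siRNA) and siChst7 (by its name against Chst7, a chondroitin sulfate sulfotransferase), with 2 JUNB CUT&RUN libraries each; 3 IgG libraries were not analysed here, and no antibody background is given. The labels' treatment text lists siJunb, siH1f0 and siControl, not siChst7, and the groups follow titles and treatment labels. All libraries share 1 line, and the labels call them biological replicates without saying that the cultures were separate. P-values over them therefore measure only the spread between these libraries, which may be technical.

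In CUT&RUN an antibody brings a nuclease to the protein of interest, and the DNA cut out beside it is sequenced. JUNB is a basic leucine zipper protein that pairs with FOS or ATF family proteins to form the transcription factor AP-1, which binds the palindrome-like element TGACTCA and, with some partners, the cAMP response element TGACGTCA. In fibroblasts AP-1 is known mainly for binding at enhancers far from genes and for regulating growth, matrix and stress genes.

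The sequences below show promoters in which the position of a gene-end region lay within the window from 250 bases before to 50 bases after the start, and which hold an AP-1-type element. They were chosen among regions in 3 or 4 lists. Each is the gene's own strand, 5′ to 3′, upstream of the start, from RefSeq for GRCm38.p6 (the assembly of mm10). Capitals mark TGACTCA or its reverse complement TGAGTCA, or the palindrome TGACGTCA.
Qars: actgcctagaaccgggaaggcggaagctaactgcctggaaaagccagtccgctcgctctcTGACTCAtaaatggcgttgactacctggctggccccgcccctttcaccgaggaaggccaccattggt
Tpbg: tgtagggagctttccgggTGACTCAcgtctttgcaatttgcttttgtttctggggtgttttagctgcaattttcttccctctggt
Srxn1: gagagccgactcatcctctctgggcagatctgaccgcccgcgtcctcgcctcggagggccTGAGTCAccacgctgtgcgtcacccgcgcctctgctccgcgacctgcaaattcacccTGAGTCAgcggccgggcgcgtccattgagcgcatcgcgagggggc
Septin7: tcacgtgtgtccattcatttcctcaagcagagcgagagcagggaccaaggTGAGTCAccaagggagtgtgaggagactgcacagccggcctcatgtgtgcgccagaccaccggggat
Capn2: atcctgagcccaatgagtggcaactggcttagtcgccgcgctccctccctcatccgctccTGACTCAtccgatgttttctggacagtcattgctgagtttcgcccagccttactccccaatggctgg
Bag3: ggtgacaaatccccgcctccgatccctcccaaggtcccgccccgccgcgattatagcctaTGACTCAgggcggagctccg
Dapk3: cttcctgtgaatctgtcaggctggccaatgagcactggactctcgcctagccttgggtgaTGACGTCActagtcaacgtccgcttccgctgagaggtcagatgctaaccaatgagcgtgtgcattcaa
Ing3: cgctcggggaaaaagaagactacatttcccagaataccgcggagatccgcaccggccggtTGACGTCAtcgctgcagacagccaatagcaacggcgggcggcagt

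The stretch of Qars, the glutaminyl-tRNA synthetase, is chr9:108507863-108507989 on the plus strand, and that of Tpbg, a cell-surface glycoprotein, is chr9:85842130-85842214 (plus). The stretch of Srxn1, which reduces oxidised peroxiredoxins, is chr2:152105362-152105523 (plus) and has 2 matches. For Septin7, a cytoskeletal GTPase, it is chr9:25251741-25251857 (plus), and for Capn2, a calcium-dependent protease, chr1:182517727-182517853 on the minus strand. The Bag3 stretch, of a co-chaperone of HSP70, is chr7:128523503-128523582 (plus). Dapk3, a kinase of myosin regulation, and Ing3, a chromatin subunit, hold TGACGTCA, in chr10:81182808-81182935 (plus) and chr6:21949466-21949570 (plus). The position of the Srxn1 region lay 12 bp from the nearer of its matches. In the other 7 promoters the distance was 112 to 168 bp, so these matches stood apart from the summits. The marked matches of Tpbg and Ing3 lay outside the joined region, just beyond its border.

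The fold enrichments of these regions are the values that the authors' peak caller gave each peak over its local background. They are given in the order siControl replicate 1, siControl replicate 2, siChst7 replicate 1, siChst7 replicate 2, as in all sentences that list 4 folds. The Qars region had folds of 10.3, 10.6, 9.76 and 5.04, and the Tpbg region 8.38, 8.70, 8.16 and 4.76. The Srxn1 region had 7.40, 4.58, 10.0 and 6.85. Against the median gene-end fold of the same list, which was 6.44, 6.21, 6.23 and 6.31, Qars and Tpbg lay below it in siChst7 replicate 2 and Srxn1 in siControl replicate 2. The Septin7 region had 4.79, 6.59, 13.3 and 6.31, and the Capn2 region 9.02, 7.73, 7.51 and 4.88. The Dapk3 region, whose position is also near the 3′ end of Eef2, the elongation factor, had 8.86, 13.4, 13.2 and 11.4. The Ing3 region had 7.73, 8.08, 6.61 and 8.20, and both Dapk3 and Ing3 lay above the median of every list. Bag3 was in 3 lists with folds of 10.3, 6.21 and 6.35 and was not called in siChst7 replicate 2. A fold belongs to its own list, so values of different libraries stand side by side here and show no difference in binding.

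TGACTCA was present in 15.3% of the promoters that held a region's position and in 4.66% of all promoters of the same length. These are 51 of 334 promoters at 299 regions (exact binomial 95% interval 11.6% to 19.6%, counting error only) and 990 of 21263 promoters in the table. Among promoters whose region was in 1 list the share was 10.5% (23 of 219, interval 6.77% to 15.3%). It was 25% where the region was in 2 or more lists (29 of 116, interval 17.4% to 33.9%) and 24.2% in all 4 lists (8 of 33, interval 11.1% to 42.3%). The full cAMP response element TGACGTCA was in 6.59% of the 334 promoters and 2.23% of all, and in 15.2% of the 33 (5 promoters, interval 5.11% to 31.9%). Both strands were searched, and 1 of 58 TGACTCA matches in the 334 promoters overlapped another searched motif. Promoters can share a region, so they are not independent of each other.

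Other promoter elements were searched in the same way. GGGCGG, the core of the GC box bound by SP1, was in 68.6% of the 334 promoters and 46.2% of all promoters, and their median GC content was 60.0% and 56.3%. CCAAT, the element of NF-Y, was in 47.6% and 38.2%. TATAAA, the TATA box, was in 5.69% and 12.6%. CCGGAAG (ETS family), CACGTG (the E-box) and GGAATG (TEAD family) were in 12.9%, 8.98% and 12.3% of the 334 promoters, beside 11.6%, 7.84% and 13.6% of all. The promoters with JUNB regions were thus richer in GC and in GC boxes and poorer in TATA boxes than the table as a whole. No difference between these shares was tested, and a match is a description of letters in the window and not a binding site.

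Gene-end regions lay mostly at starts. The strand was known for 17492 genes. At their 5′ ends 1256 region and gene pairs were counted, covering 1170 genes (6.69%), and at their 3′ ends 233 pairs covering 214 genes (1.22%). By region, 1016 were at 5′ ends only, 153 at 3′ ends only, and 250 only at ends of genes without strand. The other 109 were at ends of mixed kinds, which includes a 5′ or 3′ end beside an end of a gene without strand. At starts the median distance was 297 bp, and 914 pairs (72.8%) lay within 500 bp. At 3′ ends the median was 543 bp and 105 (45.1%) lay within 500 bp. A position spread evenly over the window would have a median near the middle of it, as the 3′ ends did.

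Upstream positions were more frequent than downstream ones at starts, with 716 (57.0%) and 540 pairs. The 100 bp stretches from 100 to 400 bp upstream held 125, 152 and 121 pairs, going outwards, and the stretch 100 to 200 bp downstream held 122. The 100 bp just upstream of the start held 67, and the 100 bp just downstream 96. In all, 398 pairs (31.7%) lay 100 to 400 bp upstream. Positions thus flanked the start on both sides with fewer pairs directly before it.

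**Figure D1:**
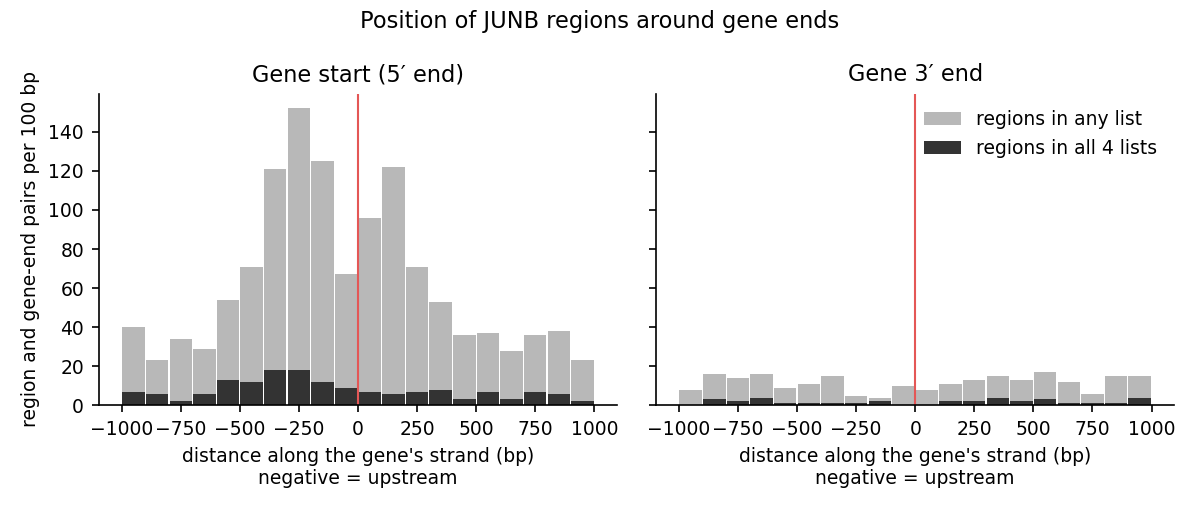
Number of region and gene-end pairs per 100 bp (vertical axis) by distance from the gene start (left) or 3′ end (right) along the gene's strand in bp (horizontal axis, negative is upstream), for regions in any list (grey) and in all 4 lists (black). Pairs gather on both sides of the start, with 152 at 200 to 300 bp upstream, 122 at 100 to 200 bp downstream and 67 in the 100 bp just upstream, while the 3′ ends show no such gathering.

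Many of the genes stand head to head with a neighbour. Among genes with a region at the start, 173 of 1170 (14.8%) had another gene's start within 1 kb on the opposite strand, beside 1154 of 17492 (6.60%) of all genes with a strand. For genes whose start region was in all 4 lists the number was 24 of 159 (15.1%). A region between paired starts counts for both genes, so such genes have more chances to be counted. Of the 1528 regions, 253 were at 2 genes and 4 at 3 genes, together 257 (16.8%). The genes had a median length of 19.3 kb, beside 17.1 kb for all protein-coding genes.

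Regions at gene ends recurred in fewer lists than regions elsewhere. Of the 1528, 856 (56.0%) were in 1 list, 280 (18.3%) in 2, 172 (11.3%) in 3 and 220 (14.4%, exact binomial interval 12.7% to 16.3%) in all 4. Over all 12655 regions 46.7% were in 1 list and 22.0% in all 4. The 11127 regions away from gene ends had 45.4% in 1 list and 23.1% in all 4 (interval 22.3% to 23.8%). Regions deep inside genes (over 10 kb from any end, 4110 regions) had 45.6% and 22.4%, and regions outside genes at 10 to 100 kb from an end (2693) had 42.6% and 25.1%. The share in all 4 lists was thus lowest at gene ends. Within the gene-end regions it was 13.5% for the 1016 at 5′ ends only and 18.3% for the 153 at 3′ ends only (interval 12.5% to 25.4%). It was 7.34% for the 109 at ends of mixed kinds (interval 3.22% to 14.0%) and 18.8% for the 250 only at genes without strand.

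**Figure D2:**
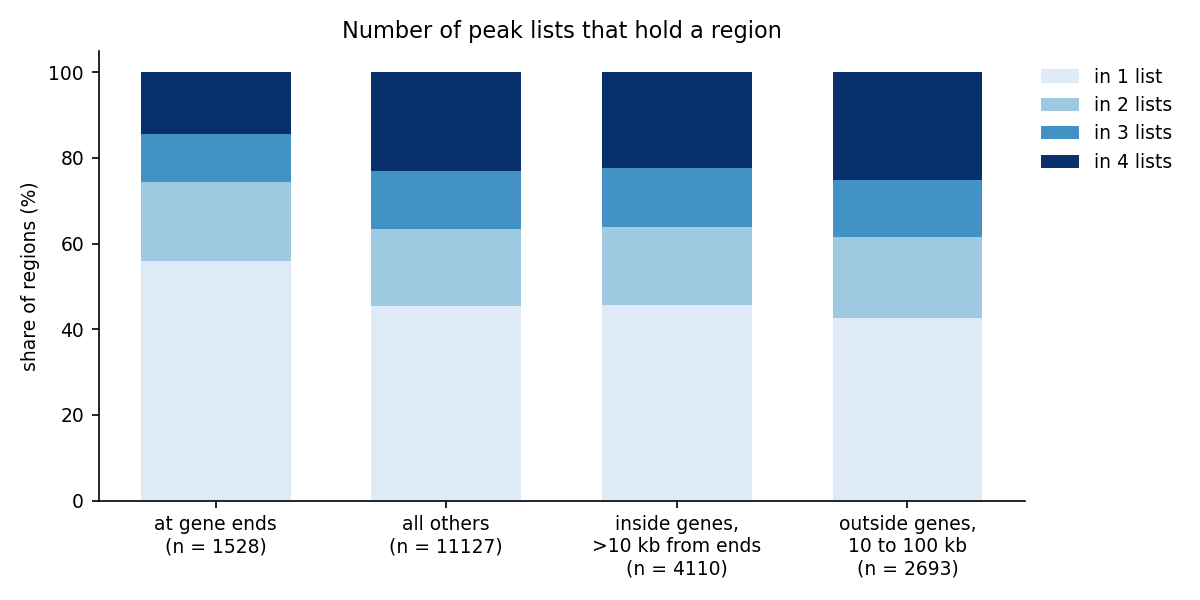
Share of regions in percent (vertical axis) held by 1, 2, 3 or 4 of the peak lists (light to dark), for gene-end regions, all other regions, regions inside genes over 10 kb from their ends, and regions outside genes at 10 to 100 kb. The darkest segment is 14.4% at gene ends and 22.4% to 25.1% in the other classes.

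Seen from each library, the share was lower at gene ends too. Of the gene-end regions of siControl replicate 1, 31.6% were in all 4 lists, beside 45.5% of its other regions. The pairs were 40.5% and 50.1% for siControl replicate 2, 19.2% and 28.8% for siChst7 replicate 1, and 51.8% and 61.3% for siChst7 replicate 2. These 4 comparisons count the same regions in all 4 lists against each library's own total, so they are not separate observations, and no test was drawn from them. Absence from a list means only that no peak passed its threshold there, since read counts were not used here.

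The lists had unequal lengths. The numbers of peaks were 6469 and 5827 for siControl and 10163 and 4735 for siChst7, and the labels state 30 M reads per library; read depth is unknown here. Of the 856 gene-end regions in a single list, 523 (61.1%) were in siChst7 replicate 1, beside 62.7% of the single-list regions elsewhere. The remainder were 169 in siControl replicate 1, 107 in siControl replicate 2 and 57 in siChst7 replicate 2. When each list was cut to its best 4735 peaks by q, 843 gene-end regions remained, with 417 (49.5%) in 1 list and 21.1% in all 4, beside 39.0% and 27.9% elsewhere. Of these 417, siChst7 replicate 1 then held 84 (20.1%), fewer than any other list. Without that library, 1013 gene-end regions remained, of which 21.9% were in all 3 lists, beside 31.8% elsewhere. The lower recurrence at gene ends was therefore present with equal list lengths and without the longest list.

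Peaks at gene ends were narrower than other peaks of the same list. Their median width was 378 bp in siControl replicate 1, 324 bp in siControl replicate 2, 379 bp in siChst7 replicate 1 and 356 bp in siChst7 replicate 2. The other peaks had medians of 428, 383, 456 and 411 bp in the same order. In every library the gene-end median was the lower one. The mean difference of median log2 width was -0.22 (range -0.27 to -0.18, n = 4), a ratio of 0.856. The two-sided exact permutation gave p = 0.125, the smallest that 4 libraries allow. The libraries share many regions, so these differences, and those of fold below, are not fully separate observations. The quartiles of the classes overlapped widely, with 257 to 581 bp at gene ends and 279 to 650 bp elsewhere in siControl replicate 1.

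The peak caller's folds differed less. The gene-end medians were 6.44, 6.21, 6.23 and 6.31, and those of other peaks 6.87, 6.63, 6.67 and 6.72. The mean difference of median log2 fold was -0.09 (range -0.10 to -0.09), a ratio of 0.937, lower in 4 of 4 libraries (exact permutation p = 0.125). No gene-end peak had a fold below 3, and folds ran from 3.33 to 49.6. Width and fold went with the number of lists. Gene-end regions in 1 list had a median width of 276 bp and a median fold of 5.35, and those in all 4 lists 594 bp and 8.59. Regions away from gene ends in all 4 lists had 602 bp and 8.61, close to the gene-end values, a difference that was not tested.

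**Figure D3:**
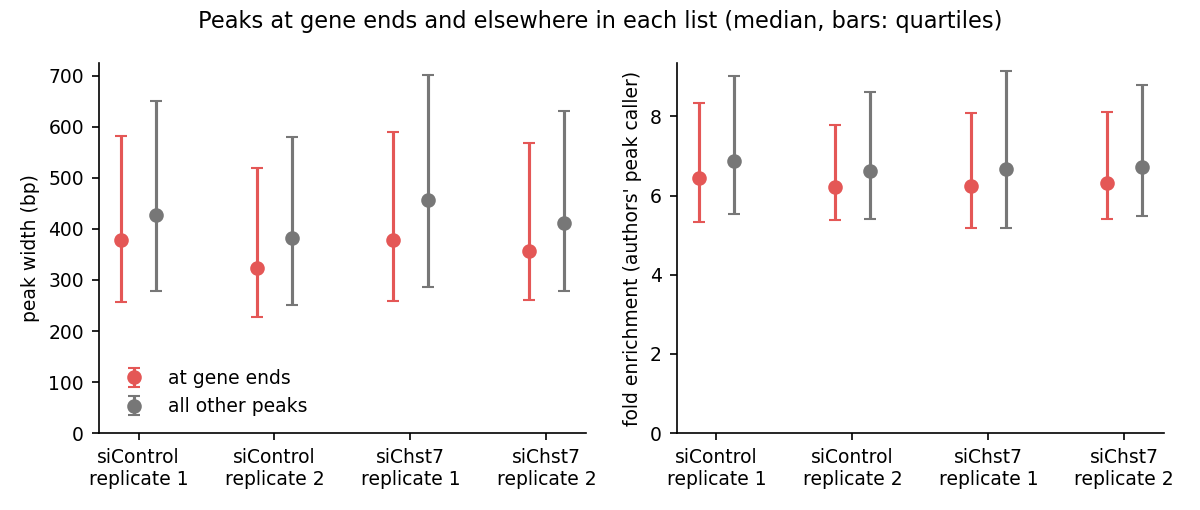
Median peak width in bp (left) and median fold enrichment from the authors' peak caller (right) in each library, for peaks at gene ends (red) and all other peaks (grey), with bars from the lower to the upper quartile. The red median is below the grey one in all 4 libraries, for width (324 to 379 bp beside 383 to 456 bp) and for fold (6.21 to 6.44 beside 6.63 to 6.87).

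The strongest gene-end regions were at genes of several functions. Ranked by the mean of their ranks by q within the lists, the first was at chr6:91488131-91489620, 365 bp beyond the 3′ end of Tmem43, an inner nuclear membrane protein, and 477 bp from an end of Xpc, the damage sensor of nucleotide excision repair. Its folds were 26.1, 20.3, 49.6 and 27.4 and its peaks were 1041 to 1369 bp wide. The second, chr11:35837504-35839520, lay 382 bp inside the 3′ end of Wwc1, which encodes KIBRA, an upstream regulator of the Hippo pathway, with folds of 25.1, 23.0, 28.3 and 25.2. The third, chr17:23674762-23677748, lay 105 bp beyond the 3′ end of Hcfc1r1 and 184 bp inside that of Tnfrsf12a, the receptor of TWEAK, with folds of 26.8, 17.2, 29.5 and 21.4. So each of the first 3 lay near a 3′ end, although 3′ ends held few of the region and gene pairs. The first also lay near an end of a gene without known strand, Xpc. By the median over the lists the third was also the widest gene-end region in all 4 lists, though not the widest in each list, with peaks of 2490, 1283, 2987 and 1994 bp.

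Of the next 7 regions, 5 lay upstream of starts, and 2 lay at genes without a known strand. The Vim region, 579 bp upstream of this intermediate filament gene, had folds of 24.1, 20.4, 25.4 and 18.7. That of Rtn4, a reticulon of the endoplasmic reticulum (chr11:29691530-29693418, 532 bp upstream), had 20.2, 16.7, 25.2 and 19.4. That of Stk40, a pseudokinase gene (chr4:126102256-126103990, 428 bp upstream), had 23.2, 22.4, 19.8 and 15.2. All 3 lay on the side of the start away from the gene body. The Otud7b region, at a deubiquitinase gene (chr3:96159820-96161769, 834 bp from an end), had 20.8, 14.9, 24.9 and 19.8, and the Nt5dc3 region (chr10:86778185-86779029, 252 bp upstream) 14.2, 19.9, 20.1 and 18.0. The region 386 bp upstream of Nr1d1, the clock repressor REV-ERB alpha (chr11:98775095-98776375), had 15.4, 15.3, 22.8 and 16.8. Cst6, a cystatin (chr19:5345287-5345988, 973 bp from an end), closed the first 10 with 16.5, 15.5, 19.6 and 15.1. All 10 lay above the upper quartile of gene-end folds in each list (8.35, 7.77, 8.08 and 8.12). After those already named, Abcb8, a mitochondrial ABC transporter (chr5:24392587-24394908), was among the 5 widest, with peaks of 1827, 1828, 2322 and 1350 bp and folds of 14.2, 14.2, 18.4 and 6.55. Exons and introns were not annotated here.

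**Figure D4:**
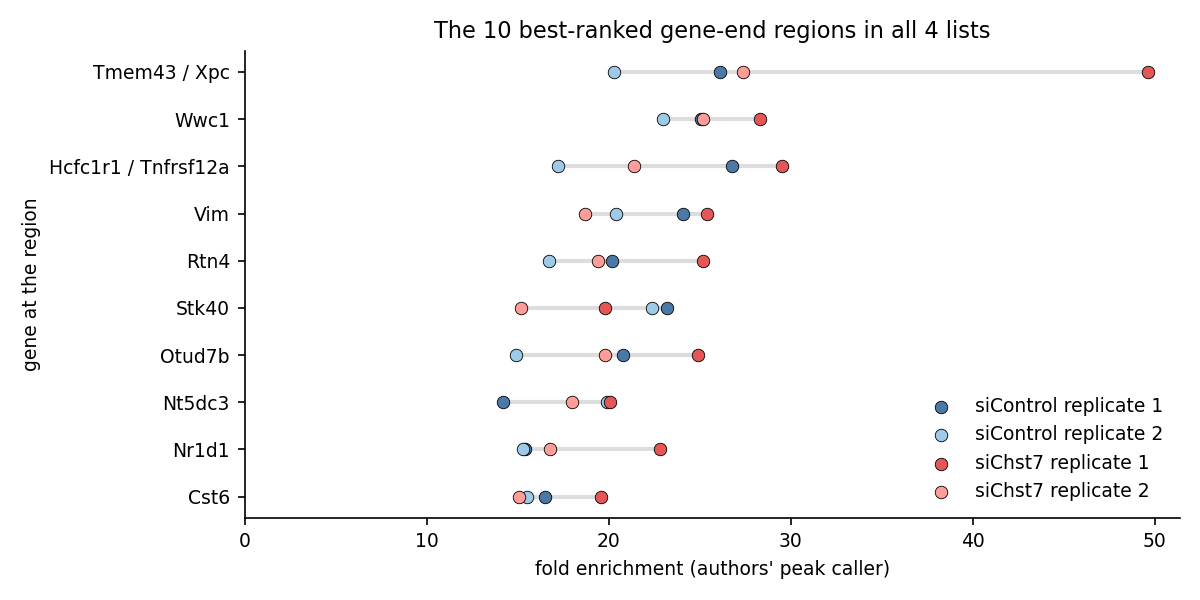
Fold enrichment from the authors' peak caller (horizontal axis) of the 10 gene-end regions with the best mean rank (rows, by gene) in siControl replicates 1 and 2 (blue) and siChst7 replicates 1 and 2 (red), with a grey line over the range. The Tmem43 and Xpc region reaches 49.6 in siChst7 replicate 1, and the other 9 regions run from 14.2 to 29.5.

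Several strong regions were shared by neighbouring genes. The start of Myl12a, a regulatory light chain of nonmuscle myosin, lies near that of Myom1, a sarcomere protein. The region upstream of both (chr17:71002188-71003445, 252 and 547 bp) had folds of 13.7, 12.2, 21.9 and 10.4. A region at Rin1, a RAS effector, and Brms1, a corepressor subunit (chr19:5049882-5051152), had 16.6, 8.40, 26.0 and 12.6. A region at Parp3, an ADP-ribosyltransferase, and Rrp9, a factor of ribosome assembly (chr9:106476100-106477272), had 14.4, 12.8, 8.97 and 15.5. Which gene of such a pair a region concerns cannot be read from its position.

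Genes were grouped into 26 lists, with 672 genes in all, and counted by the presence of a gene-end region. Over all protein-coding genes, 7.37% had one in any list and 1.11% had one in all 4 lists, and each list below is read against these shares. The immediate-early genes, which respond to growth signals within minutes, had the highest share in any list (12 of 24), and 2 had a region in all 4 lists. These were Zfp36l2, an mRNA decay factor (7.93, 7.02, 9.81 and 6.31), and Klf10, a zinc finger factor induced by TGF-beta (5.36, 6.29, 6.86 and 5.05). Gadd45a, a growth arrest gene, was in 3 lists and Cebpb in 2. The regions at Egr1, Ier2, Klf6, Klf4, Btg2, Rhob, Gadd45b and Myc were each in a single list, and 5 of these 8 genes had theirs in siChst7 replicate 1 alone. Without that library, 7 of the 24 had a region. Gene-end regions as a whole fell from 1528 to 1013 without it, and to 1366 without siControl replicate 1. They fell to 1068 with a window of 500 bp and to 843 with equal list length. The share in all 4 lists fell from 14.4% to 8.25% when joining peaks needed 50% reciprocal overlap. List counts under these settings, here and below, were not compared with the share of all genes under the same setting.

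The AP-1 family and its relatives had 10 of 23 genes in any list (43.5%) and 2 in all 4. Maff, a small MAF protein without an activation domain, had folds of 12.3, 8.29, 10.6 and 9.33 at 757 bp inside the gene. Bach1, a repressor of oxidative stress genes, had 7.0, 7.22, 12.7 and 11.2 at 835 bp inside. The FOS relatives Fosl1 and Fosl2 and the stress factor Atf4 had regions in 3 lists each, with folds of 5.93 to 10.3. Fosl1 had 2 such regions, 108 and 981 bp from an end, and between them every list held a peak. Junb itself had a region beyond its 3′ end and another upstream, with folds of 5.15 and 4.58, both in siControl replicate 1 only. Jund was called in siChst7 replicate 1 alone and Fosb in siControl replicate 2 alone. Maff and Bach1 lay beyond 500 bp, and with a window of 500 bp 4 of the 23 genes had a region and none had one in all 4 lists.

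Genes of MAPK feedback and the ligands of the EGF receptor had the highest share in all 4 lists, 4 of 19 (21.1%), and 8 (42.1%) in any. Dusp1, the phosphatase that inactivates p38 and JNK, had folds of 12.2, 8.08, 11.2 and 8.83 at 474 bp upstream. Dusp10, a phosphatase of the same kinases, had 13.7, 6.32, 10.6 and 6.59 at 932 bp beyond its 3′ end. The ligand Ereg had 4.64, 4.97, 6.94 and 8.02, and Hbegf 5.80, 4.97, 7.12 and 6.94. Dusp1 lay above the upper quartile of gene-end folds in every list. Both ligands lay below the list's median in the siControl lists and above it in the siChst7 lists, which differ in length, and this was not tested. With 50% reciprocal overlap needed to join peaks, 1 of the 4 was in all lists.

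Actin and adhesion genes had 13 of 38 (34.2%) in any list and 5 (13.2%) in all 4. Myl12a has been given above. Myh9, the heavy chain of nonmuscle myosin, had folds of 11.3, 7.18, 8.46 and 6.53 at 430 bp upstream, and Pfn1, which loads actin monomers, 9.66, 7.46, 9.81 and 8.83 at 794 bp inside. Tagln2, an actin-binding calponin relative, had 7.44, 7.38, 8.65 and 8.20, and Zyx, a focal adhesion protein, 7.09, 8.70, 10.4 and 5.68 at 56 bp upstream. Pxn, the adhesion scaffold paxillin, was in 3 lists with folds of 7.92, 7.56 and 10.2. Reciprocal overlap left 2 of these genes in all lists.

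Stress genes were also present. Amino acid and unfolded protein genes had 10 of 22 (45.5%) in any list and 2 in all 4. Hspa5, the chaperone BiP, had folds of 12.3, 8.69, 9.20 and 12.1 at 964 bp upstream, and Chac1, which degrades glutathione, 5.95, 4.06, 5.59 and 10.1 at 325 bp upstream. Without siChst7 replicate 1, 6 of the 22 had a region. The heat shock chaperones had 4 of 16, with Bag3, Hsph1 and Hspa8 in 3 lists and none in 4. The NRF2 list had 3 of 18, with Srxn1 in all 4 lists. Cytokine and NF-kB genes had 7 of 22 (31.8%), with Ccl2, a monocyte attractant, in all 4 lists (7.12, 4.80, 8.65 and 5.65), and 4 of 22 without siChst7 replicate 1.

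Signalling and matrix lists also lay above the share of all genes. So did most of the 26 lists, among them proteasome genes (17.4%) and ribosomal protein genes (14.1%). Lying above that share therefore does not set these pathways apart. TGF-beta genes had 4 of 19 (21.1%), and 2 of 19 without siChst7 replicate 1. Tgif1, a corepressor of SMAD signalling, was in 3 lists with folds of 5.80 to 6.94. Hippo genes had 4 of 18 (22.2%), with Ankrd1, a target of YAP, in all 4 lists (8.84, 6.61, 9.70 and 14.5) at 432 bp upstream. Yap1 was called in siControl replicate 1 alone. Ccn2, another target of YAP, was called in both siChst7 libraries (3.75 and 4.94) and in neither siControl library. Fibroblast and matrix genes had 6 of 34 (17.6%), and Vim was the 1 gene of that list in all 4 lists. Col1a1, a collagen gene, was called in both siControl libraries (5.42 and 4.06) and neither siChst7 library. Of all regions, 3.88% were called in both siChst7 libraries only and 1.60% in both siControl libraries only. Both Ccn2 folds, and the Col1a1 fold in siControl replicate 2, lay below the lower quartile of gene-end folds of their list. Absence at such folds can follow the list's threshold, and neither gene was tested.

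Housekeeping lists varied. Translation factors had 7 of 23 (30.4%), with Eef2 and the cap-binding Eif4e (6.41, 6.63, 7.76 and 6.94) in all 4 lists. The Eef2 region is the one shown at the Dapk3 promoter. Without siChst7 replicate 1, 4 of the 23 had a region. Splicing genes had 3 of 24, with Hnrnpa1 in all 4 lists (7.32, 10.3, 12.4 and 9.35). Ribosomal protein genes had 11 of 78 (14.1%), with Rps15a in all 4 lists, and 6 of 78 without siControl replicate 1. Histone genes had 11 of 78, none in all 4 lists, and 7 without siChst7 replicate 1; their near-identical copies can split or share reads, so these are uncertain. Proteasome genes had 4 of 23, cell cycle genes 4 of 26 (2 without siChst7 replicate 1), and oxidative phosphorylation genes 0 of 23.

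Marker genes of other cell types varied. Cardiomyocyte structure and ion handling genes had 0 of 31, and cardiac transcription factors 1 of 24, Tbx3, in siControl replicate 2 and siChst7 replicate 1. The endothelial (12 genes), epithelial (10) and neuronal (9) markers had 0. At the 7.37% of all genes such short lists would hold few or none, and the epithelial list had 1 with equal list length. Smooth muscle markers had 2 of 9, with Lmod1 in all 4 lists (9.66, 7.46, 11.2 and 7.68), and 1 of 9 without siChst7 replicate 1. Of 11 macrophage markers, Cd68 (6.97 and 4.26) and Cd14 (5.92 and 4.97) were called in both siControl libraries and neither siChst7 library. This pattern was found in 1.60% of all regions. In siControl replicate 2 both folds lay below the lower quartile of gene-end folds (5.38), and no difference between the groups was tested. The labelled cell type could not be checked against expression, since peak lists hold no RNA levels. Genes of glycosaminoglycan sulfation and assembly, the pathway of Chst7, had 2 of 41 (4.88%), beside 7.37% of all genes, and 1 with equal list length. With so few genes the list is near the share of all genes, and no difference was tested. The genes were Chpf2, a chondroitin polymerising factor, in both siChst7 libraries only (7.88 and 4.40), and Chst12, a chondroitin sulfotransferase, in siControl replicate 1 (5.45). Of all regions, 3.88% were in both siChst7 libraries only. Chst7 had no gene-end region, and the nearest region, 279 kb away, was in 1 list.

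**Figure D5:**
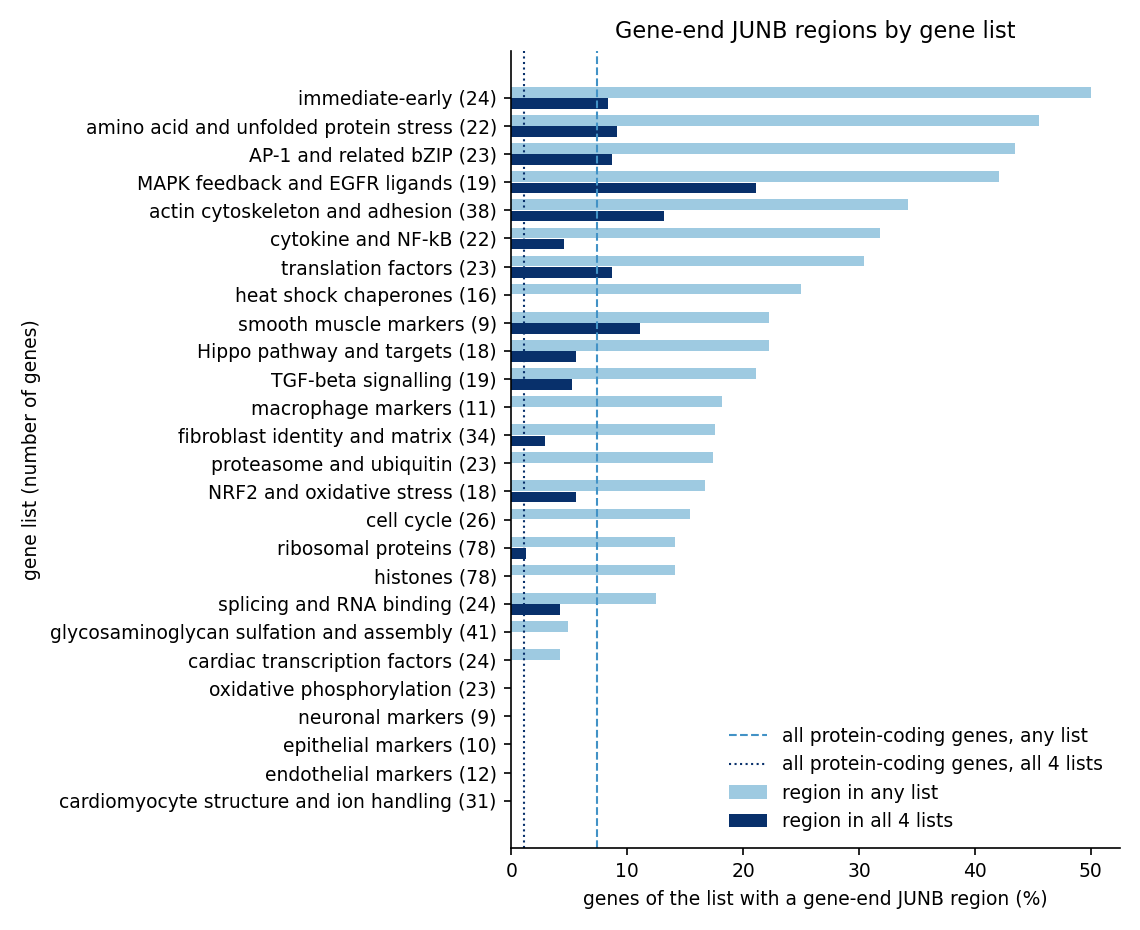
Share of the genes of each list (rows, number of genes in brackets) with a gene-end region in any peak list (light bars) and in all 4 (dark bars), in percent; the dashed and dotted lines are the shares over all protein-coding genes, 7.37% and 1.11%. Immediate-early genes have the longest light bar, with 12 of 24 genes, and MAPK feedback genes and EGFR ligands 21.1% in all 4 lists.

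The comparison of siChst7 with siControl asks whether JUNB sat elsewhere when Chst7 was targeted. The share of a list's peaks that belonged to gene-end regions was 10.9% for siControl replicate 1 and 9.56% for replicate 2, a mean of 10.2% ± 0.947 (SD, n = 2). It was 11.4% for siChst7 replicate 1 and 9.25% for replicate 2, a mean of 10.3% ± 1.52 (SD, n = 2). The siChst7 libraries held the highest and the lowest share, with both siControl libraries between them. The difference of 0.10 percentage points was smaller than the spread in either group (two-sided exact permutation p = 1.00, where 0.333 is the smallest p allowed). The width difference between gene-end and other peaks was -0.21 ± 0.04 in siControl and -0.24 ± 0.04 in siChst7 (log2 width, mean and SD, n = 2). That difference of -0.02 gave an exact permutation p = 0.667. Regions at gene ends were called in both siControl libraries for 389 genes and in both siChst7 libraries for 389 genes, 1.78% of all genes in each case.

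A small number of regions followed the groups. Called in both siControl libraries and neither siChst7 library were 26 gene-end regions (1.70%), beside 1.60% of all regions. Called in both siChst7 libraries and neither siControl library were 53 (3.47%), beside 3.88% of all regions. Both shares are near those of all regions, and the larger siChst7 number goes with the longest list. With equal list lengths there were 37 regions in each of these sets, of 843 gene-end regions. For this setting and the next, the share over all regions is not given, so these counts do not set gene ends apart. With single libraries left out, so that fewer lists had to hold a region, the numbers ran from 29 to 197 for siControl and from 79 to 578 for siChst7, both highest without the shorter list of the group. The best ranked siControl-only region was at Dtd2, which clears mischarged tRNAs (folds 7.73 and 9.32). It was followed by the shared start of Sap30bp and Recql5, a RecQ helicase (6.80 and 9.52), which also holds TGACTCA, and by Calm3, a calmodulin gene (10.1 and 6.21). Ccdc130 (7.12 and 8.08) and Myo1e, a class I myosin (7.12 and 6.83), completed the first 5. Their folds ran from 6.21 to 10.1.

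Among the best ranked siChst7-only regions, that of Prkag3, a subunit of AMP-activated kinase, had folds of 9.23 and 8.17, and the region at Ttll12 and Tspo, an outer mitochondrial membrane protein, 13.3 and 5.68. LOC102634078 (8.22 and 8.83) and Zfp474 (8.49 and 7.57) followed. With 50% reciprocal overlap, the regions at Sap30bp, Calm3 and Prkag3 were in 1 list, so their place in these sets depends on how peaks were joined. Presence in 2 lists and absence from 2 others follows each list's threshold, and no single region was tested.

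The limit of 1 kb cut through a continuous range. Just inside were regions at Tyw1 (997 bp, 2 lists), Nab1 (995 bp, 3 lists), Gss (995 bp), Ticam1 (994 bp) and Osbpl2 (989 bp), the last 3 in 1 list each. Just outside were Krt8, a keratin of simple epithelia (1001 bp, all 4 lists, folds of 5.34 to 7.57), Spint2 (1001 bp), Gas2l3 (1003 bp) and Mrgprf (1003 bp), each of these 3 in 1 list, and S100a10, a partner of annexin A2 (1004 bp, all 4 lists, folds of 10.3, 6.58, 6.61 and 5.05). Krt8 is an epithelial marker, and with the summit of the best list as position it counted as a gene-end region.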

How the data were processed

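JUNB CUT&RUN peak lists of 4 libraries were used, 2 for siControl and 2 for siChst7. Alignment and peak calling used Bowtie2, MACS3 and mm10, per the submitters' processing notes; versions, settings and the use of IgG as control are not given in the sources used here. Each deposited list holds the peaks of 1 library, per the file headers and peak names. The authors' values for a peak are its fold (a ratio over local background), its −log10 p-value, its −log10 q-value, and a deposited score; the score was not used. All peaks had a q near or below 0.01.

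Peaks that shared at least 1 bp were joined. Genes were the 21900 protein-coding genes of a RefSeq table of GRCm38.p6; a RefSeq promoter table gave strand for 17492 and not for 4408, and promoter letters for 21263 promoters. Libraries were compared by two-sided exact permutation, between groups or by swapping gene-end and other values within libraries; intervals are exact binomial (Clopper-Pearson, 95%). The 675 entries of 26 gene lists all matched. The members and lists were chosen with earlier results of these data known, and the promoter motifs and lists support no independent claim. Named regions were the 10 best ranked and 5 widest in all 4 lists, the 5 best of each group-only set and at 2 or more genes, up to 4 genes per gene list, genes with most regions, Chst7 and the 5 nearest to the 1 kb limit on each side; other members of gene lists were named after their values were seen, and some items that the rule names are left out of the text. The joining and placing of peaks was tested on simulated data over 3000 genes, where 2966 of 2966 regions and 966 of 966 gene-end regions were recovered. The other settings tried were summits widened by 100 bp each way, 50% reciprocal overlap, q of at most 0.001, fold of at least 5, equal list length, windows of 500 bp and 2.5 kb, the summit of the best list, gene starts only, autosomes and X, leaving out each library, and a replicate block. Scripts ran in Python 3.11.15 with pandas 2.3.3 and NumPy 2.4.6, tests in SciPy 1.17.1, and plots in Matplotlib 3.10.9.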

Additional observations from a re-analysis of the deposited data

How the results depend on the processing

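Gene-end peaks were narrower (-0.30 to -0.18 on the log2 scale) and had lower folds (-0.10 to -0.05) than other peaks under every alternative run. The share in all lists was also lower at gene ends, on average over the libraries (-13.74 to -6.01 percentage points), a measure chosen after seeing the data that rests on regions common to the libraries. The 1528 gene-end regions became 843 with equal list length, 2460 with a window of 2.5 kb and 1013 to 1476 without single libraries, lowest without siChst7 replicate 1. The 14.4% in all 4 lists became 8.25% with reciprocal overlap, 8.79% with summit windows, 21.1% with equal list length, 12.5% and 16.4% with windows of 500 bp and 2.5 kb, and 17.9% to 21.9% in all 3 lists without single libraries. The difference in gene-end share between groups (0.10 points) reversed with equal list length (-0.46), a 500 bp window (-0.03) and gene starts only (-0.03), and ran from -0.98 without siChst7 replicate 1 to 1.20 without siChst7 replicate 2, with -0.59 without siControl replicate 2. The group difference in log2 width (-0.02) reversed with equal list length (0.05) and a 500 bp window (0.02), and ran from -0.07 to 0.01 without single libraries. The siControl-only and siChst7-only regions (26 and 53) were 37 and 37 with equal list length. The siChst7-only regions numbered 85 with a 2.5 kb window, 34 at gene starts only and 79 to 578 without single libraries. The siControl-only regions numbered 29 to 197 without single libraries. A set missing a library needs fewer lists, and no share over all regions is given beside these counts. The causes were not tested. Replicate numbers are shared between groups, but same-numbered libraries barely deviated together (r = 0.07 over 220 gene-end regions in all 4 lists), and with the number as a replicate block the share difference was 0.10 and the width difference -0.02 (exact permutation p = 1.00 for both, smallest 0.5). For single regions and gene lists, 910 values stayed near the main value and 168 moved.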

Other observations

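Genes with a gene-end region were unevenly spread over chromosomes. Chromosome 19 had 74 of 705 genes (10.5%), chromosome 10 104 of 1001 (10.4%) and chromosome 11 166 of 1609 (10.3%). Chromosome 14 had 29 of 851 (3.41%), chromosome 4 54 of 1328 (4.07%) and chromosome 13 40 of 829 (4.83%). The X chromosome had 19 of 966 (1.97%), none of them in all 4 lists, and the Y chromosome 0 of 256. Regions of any position were few on X as well (156 of 12655), of which 17 (10.9%) were at gene ends, a share close to the 12.1% of the genome.

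Most genes had 1 gene-end region (1461 of 1615), 135 had 2 and 18 had 3. Pfn1, which binds actin monomers, was the 1 gene with 4. Its region 794 bp inside the start was in all 4 lists, and the other 3 lay beyond its 3′ end, at or near the end of Rnf167, and were each in 1 siControl list, with folds of 5.15, 6.21 and 6.41. These 3 lay side by side within chr11:70650939-70651811 and counted as separate regions because their peaks shared no base. Neither siChst7 list held a peak there within the window. Of all regions, 8.31% were in siControl replicate 1 alone and 5.89% in siControl replicate 2 alone, and this absence was not tested.

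Several promoters that held both a region's position and TGACTCA have not been shown above. Hnrnpa1, an RNA-binding protein, Pla2g2e and Ubald1 had regions in all 4 lists with median folds of 9.83, 8.92 and 6.19. Ric8b, a chaperone of G protein subunits, was in 3 lists with a median fold of 10.5. F3, the coagulation initiator tissue factor, Il6, a cytokine, and Ddit3, the stress factor CHOP, each had such a region in 1 list, with folds of 5.19, 5.97 and 5.04.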
